A study of Oryza sativa with 20 samples.

Results

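The gene set described here holds the 150 rice genes, of 37829 with a rice gene ID in the files, that stood highest at the last of 5 leaf stages, S5, in both tissues sampled, relative to every earlier stage. They were chosen by a score on the log2(FPKM + 1) scale: the lower of the lamina joint and blade means at S5, minus the highest of the means of the 8 earlier groups. FPKM divides the fragments of a gene by its transcript length and by the fragments mapped in that library. The values at S5 against S1 to S4 chose the members, so they are given as a description without a test. Tests were run on which tissue was higher at S5 and at S4 and on the order of S3 and S4, which the score did not use as such. The step from S4 to S5 was compared between the tissues, and because the score used the step in each tissue, that comparison is a description.

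RNA-seq was made from seedlings of rice (Oryza sativa) grown in water, from cut pieces of their first complete leaf. The lamina joint (LJ) joins sheath and blade and sets the angle of the leaf as it bends, and the blade is the flat part of the leaf above it. Both were sampled at 5 stages, S1 to S5, from organ formation to the formation of the leaf angle, with 2 libraries for each tissue and stage, 20 libraries in 10 groups. The labels name no mutation, treatment or cultivar for any group. They do not state that replicate libraries were made from different plants, so p-values rest on the spread between libraries alone, and that spread may be technical.

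A rice leaf passes from a dividing and elongating organ to a mature one that photosynthesises and later exports its nutrients. Mature leaves are known to hold standing defences: chitinases, which cut the chitin of fungal cell walls, and enzymes of the jasmonate pathway, which starts with lipoxygenases that oxidise membrane fatty acids in the chloroplast and goes on through allene oxide synthase. Jasmonate itself is a hormone of wounding, defence and leaf ageing. Genes for chloroplast proteins that respond to light also rise as leaves expand. In whole pieces of tissue, fewer cells of a type and less RNA per cell cannot be told apart.

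The files give IDs without names. Of the 150 members, 7 carry a symbol here: the chitinase genes CHT1, CHT8 and CHT11, the lipoxygenase gene CM-LOX1, the allene oxide synthase gene AOS2, LIR1, which encodes a light-regulated chloroplast protein, and MT1B, which encodes a metallothionein-like metal-binding protein. CHT1 and AOS2 were on a list of defence and jasmonate genes, and the other 5 were named after their values had been seen. All the other members are given by ID only.

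The FPKM of all rice gene IDs summed to between 860684 and 1079325 in a library, and 18265 to 21695 genes reached 1 FPKM. The blade libraries at S4 were unlike each other: the 50 highest genes held 27.3% of the FPKM in the first and 44.2% in the second. The counts from S3 to S4 in blade and between the tissues at S4 are given without the second as well. The blade changes of listed genes from S4 to S5 were fitted only with both. The lamina joint label was checked with 3 marker loci at S5. LG1, a transcription factor needed to form the lamina joint, averaged 21.2 FPKM in LJ and 1.47 in blade and was called higher in LJ, as was OS11G0490600. DL, a transcription factor of the leaf midrib, averaged 0.521 FPKM in LJ against 0 in blade and was not called (limma, adjusted p = 0.28).

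The scores of the members ran from 5.72 to 2.32, with a median of 2.92, so that the lower S5 mean was 3.19 to 126 times the highest earlier mean in FPKM, with a median of 11.1 times. The cut fell in a dense part of the ranking. Just inside it lay OS08G0200750, OS01G0532300 and OS01G0714600 with scores of 2.34, 2.32 and 2.32, and just outside it OS10G0502300, OS05G0546400 and OS03G0133400 with scores of 2.31, 2.31 and 2.298. In all, 1188 genes scored above 1.

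The members were strong at S5 and mostly weak, but seldom silent, before it. Their median level in LJ was 0.107, 0.0893, 0.203, 3.26 and 52.3 FPKM from S1 to S5. In blade it was 0.277, 0.312, 0.579, 2.60 and 62.8 FPKM. The median tested gene lay between 3.83 and 6.44 FPKM in every group, so the median member was below the median gene at S1 to S4 and above it at S5.

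**Figure D1:**
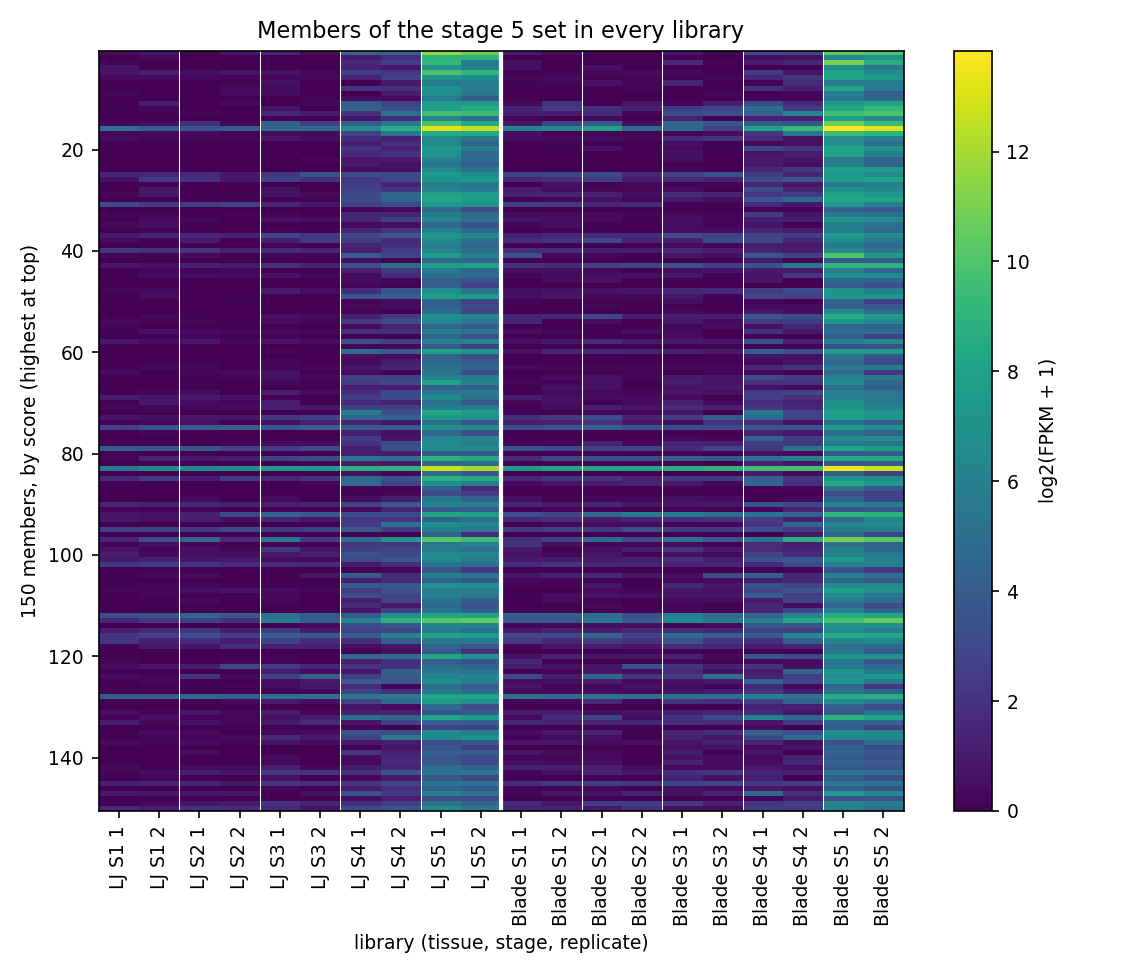
Level of each of the 150 members (vertical axis, by score) in each of the 20 libraries (horizontal axis, tissue, stage and replicate), as colour on the log2(FPKM + 1) scale. The 4 S5 libraries are the brightest columns, as the choice of members requires, and S4 is brighter than S1 to S3 for many members, with medians of 3.26 FPKM in LJ and 2.60 FPKM in blade.

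The name "on only at stage 5" did not hold for most members in the strict sense. Only 23 of 150 stayed under 1 FPKM in all 16 earlier libraries, and 0 were listed at 0 in all of them. In at least one tissue at S4, 121 members had a mean of 1 FPKM or more, and 48, 47 and 59 did so at S1, S2 and S3. An earlier group mean of 10 FPKM or more was found for 41 members. The set is therefore better described as genes highest at S5. All 150 passed the filter for testing, 1 FPKM in at least 2 libraries, but 29 of them passed only through their S5 libraries.

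At S5 the members spanned a wide range, from 5.17 to 7648 FPKM in LJ and from 6.52 to 12121 FPKM in blade. In LJ 43 members and in blade 56 members averaged 100 FPKM or more, and 4 and 7 members averaged 1000 or more. Together the 150 genes held 4.43% and 2.85% of the FPKM total in the S5 LJ libraries and 5.79% and 3.92% in the S5 blade libraries. The same genes held 0.156% to 0.310% at S4 and 0.0191% to 0.101% at S1 to S3.

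The member with the highest score was OS12G0515800. It stood at 3109 and 1836 FPKM in the S5 LJ libraries and at 1343 and 969 FPKM in the S5 blade libraries. Its S4 libraries read 20.1 and 21.1 FPKM in LJ and 6.62 and 6.53 in blade, and no library at S1 to S3 exceeded 1.59 FPKM. It was thus already visible at S4, and at S5 it was higher in both LJ libraries than in either blade library.

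OS01G0963600, second by score, reached 492 and 499 FPKM in LJ and 86.3 and 131 FPKM in blade at S5. Its highest earlier library was LJ S4 at 2.60 FPKM, and it was listed at 0 in 9 of the 12 libraries of S1 to S3. OS12G0628600, the third, was uneven between replicates, at 568 and 48.9 FPKM in LJ and 2139 and 408 in blade. In both tissues the first S5 library of this gene was several times the second, and the tissues overlapped.

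OS03G0288051, the fourth, stood at 129 and 59.5 FPKM in LJ and 115 and 43.3 in blade at S5. It lies directly after MT1B in the ID order, and the 2 genes shared the pattern of a higher first library in each tissue. OS01G0910900, the fifth, stood at 1010 and 499.5 FPKM in LJ and 266 and 102 in blade, with every LJ library above both blade libraries. The highest level of all belonged to OS01G0200700, at 9506 and 5790.3 FPKM in LJ and 14603 and 9640 in blade, a gene that was present throughout, at 5.70 to 657 FPKM in the earlier libraries.

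Among the chitinase genes, CHT1 stood at 250 and 191 FPKM in LJ and 245 and 145 in blade at S5. At S4 it read 6.97 and 24.2 FPKM in LJ and 3.42 and 4.42 in blade. The libraries of the tissues overlapped at S5, while both LJ libraries were above both blade libraries at S4.

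CHT8 stood at 78.3 and 32.6 FPKM in LJ and 147 and 105 in blade at S5, with blade the higher tissue and no overlap. CHT11 showed the other order, with 139 and 137 FPKM in LJ and 93.1 and 87.9 in blade. Its S4 libraries read 15.8 and 12.5 FPKM in LJ and 10.9 and 6.29 in blade, and its S5 replicates lay closer together than those of CHT1 and CHT8 in both tissues.

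Of the jasmonate pathway genes of the set, CM-LOX1 had the higher mean in blade at S5 and AOS2 in LJ. Only the difference of CM-LOX1 was called without pairing of the libraries. CM-LOX1 stood at 85.9 and 40.3 FPKM in LJ and 224 and 162 in blade at S5, and every earlier library was at 3.98 FPKM or below. AOS2, which acts one step further on, stood at 47.7 and 17.8 FPKM in LJ and 18.5 and 5.78 in blade. The libraries of CM-LOX1 did not overlap between tissues, with blade above, and those of AOS2 overlapped.

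LIR1 was the second most abundant member, at 7044 and 3937 FPKM in LJ and 11515 and 7071 in blade at S5. Its mean was higher at each stage than at the one before in both tissues, from 49.8 and 102 FPKM at S1 to 462 and 506 FPKM at S4 in LJ, and from 190 and 277 to 753 and 757 FPKM in blade. MT1B, by contrast, lay at 0.376 FPKM or below in all 16 libraries of S1 to S4. At S5 MT1B read 24.4 and 9.24 FPKM in LJ and 16.0 and 5.47 in blade.

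**Figure D2:**
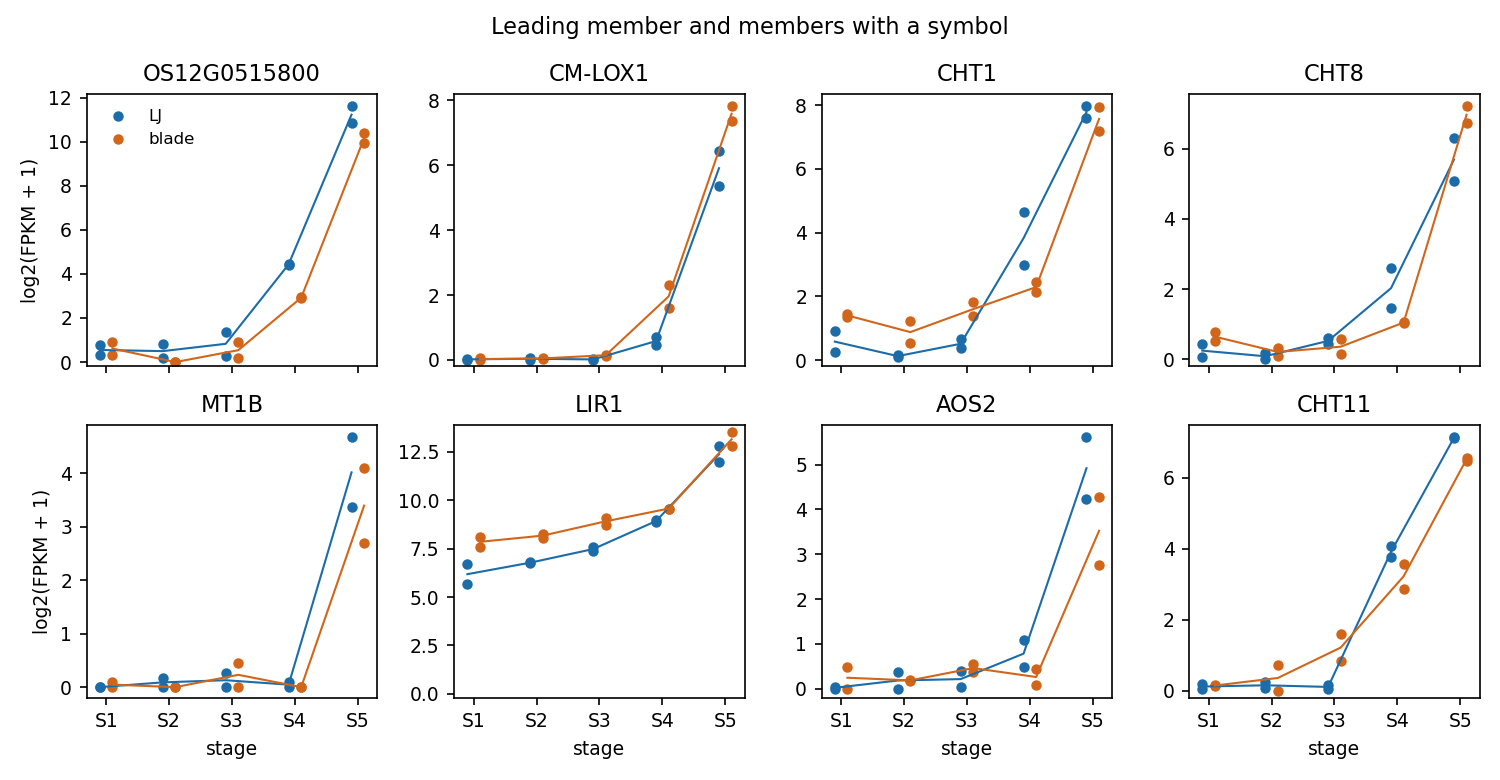
Level by stage (horizontal axis, S1 to S5) of OS12G0515800 and the 7 members with a symbol, on the log2(FPKM + 1) scale (vertical axes, which differ between panels). Each point is a library and each line joins the means of 2 libraries, LJ in blue and blade in orange; LIR1 is high at all stages, CHT11 stands above its S3 level at S4 in both tissues, and MT1B is near 0 until S5.

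The next comparison was of S4 with S3, the stages before the members' peak. By the group means that the score drew on, the highest earlier group was an S4 group for 132 of 150 members, LJ S4 for 84 and blade S4 for 48. Blade S3 was the highest for 10 members, blade S2 for 4, LJ S1 for 2, and LJ S2 and LJ S3 for 1 each.

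From S3 to S4 in LJ, 79 members rose and 0 fell at an adjusted p under 0.05 (limma, Benjamini-Hochberg over 26403 genes), against 45.3% of all tested genes called, 16.2% that rose and 29.1% that fell. At an unadjusted p under 0.05, 87 rose and 0 fell. The median change of the members was 1.27 on the log2(FPKM + 1) scale and that of all tested genes was −0.23. In blade, 51 members rose and 0 fell, against 33.0% of all tested genes called, 8.08% rising and 24.9% falling, with medians of 0.70 and −0.25, and at an unadjusted p under 0.05 the counts were 62 and 0. Without the second blade library at S4 the blade count was 50. The score limits how high S3 and S4 can stand against S5, but not their order. Among the 121 members that passed the filter without their S5 libraries, 76 rose in LJ and 51 in blade, a split added after the values were seen. Over all tested genes the split depended on scaling: 4273 rose and 7679 fell in LJ, against 5608 and 6275 after upper quartile scaling and 5638 and 6376 after quantile normalization, and in blade the counts were 2134 and 6570, 3892 and 5119, and 4772 and 4615. The members gave 0 falls in both tissues under both scalings. Their median S3 level, 0.203 FPKM in LJ and 0.579 in blade, left little room to fall on this scale. Nothing is therefore read from the lack of falls.

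**Figure D3:**
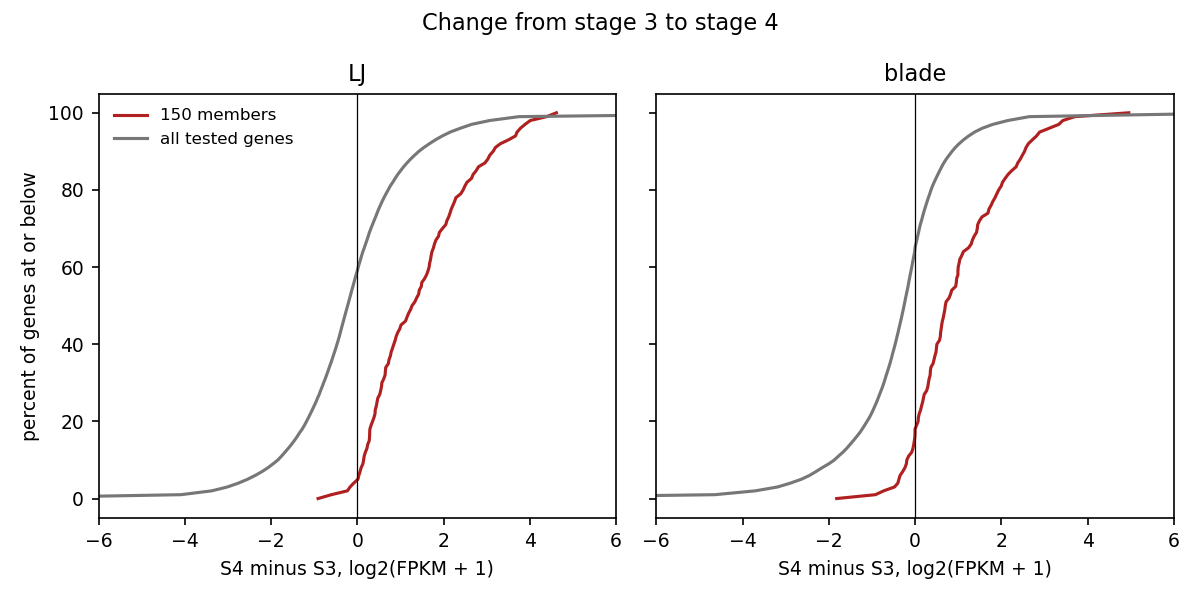
Cumulative share of genes (vertical axis, percent) by their change from S3 to S4 on the log2(FPKM + 1) scale (horizontal axis), in LJ (left) and blade (right), for the 150 members in red and all 26403 tested genes in grey. The members lie to the right of all genes in both tissues, with medians of 1.27 against −0.23 in LJ and 0.70 against −0.25 in blade.

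The largest called rise in LJ was that of OS01G0940700, from 0.191 and 0.0881 FPKM at S3 to 24.9 and 29.0 at S4, a difference of 4.61 ± 0.42 (SE; limma, adjusted p = 1.2e-06). OS11G0256900 followed at 4.45 ± 0.79 (adjusted p = 3.8e-04), from 0.0258 and 0.0959 FPKM to 54.9 and 8.64 FPKM. Neither gene overlapped between the stages, but the S4 libraries of OS11G0256900 lay far apart.

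Of the chitinase genes, CHT11 rose in LJ by 3.80 ± 0.30 (limma, adjusted p = 4.2e-07), CHT1 by 3.31 ± 0.45 (adjusted p = 4.0e-05) and CHT8 by 1.50 ± 0.39 (adjusted p = 0.0063). CHT8 was called in 9 of 11 alternatives. Among the losses was the fit without the second LJ library at S4, at 0.94. LIR1 rose by 1.45 ± 0.39 (adjusted p = 0.0077). CM-LOX1, AOS2 and MT1B were not called in LJ, with differences of 0.57, 0.57 and −0.08, though CM-LOX1 was called with a pseudocount of 0.1, at 2.40, and with only the S3 and S4 groups of LJ fitted.

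In blade the largest called rises were 4.96 ± 0.90 for OS01G0200700 (limma, adjusted p = 6.3e-04), from 25.2 and 5.70 FPKM to 257 and 657, and 3.87 ± 0.79 for OS11G0256900 (adjusted p = 0.0015), from 0.686 and 0.0572 to 53.4 and 6.02. CHT11 rose by 2.00 ± 0.30 (adjusted p = 1.4e-04). CM-LOX1 rose in blade by 1.81 ± 0.31 (adjusted p = 3.5e-04), from 0.123 and 0.0916 FPKM to 2.04 and 3.98. CHT1, CHT8 and LIR1 stood at 0.69, 0.69 and 0.66 and were not called in blade. With only the S3 and S4 blade groups fitted, 28 members were called, and CHT11 and OS11G0256900 were no longer among them.

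The tissues were then compared at S5, where the score required a high level in both and so limited how far they could differ. The lower of the S5 means, the one that entered the score, was that of LJ in 99 members and that of blade in 51. The median difference of LJ minus blade was −0.28, against 0.15 over all tested genes. It rested on single libraries: it was −0.01 without the second LJ library and 0.03 without the first blade library, and −0.56 and −0.52 without the other LJ and blade library. Without pairing of the libraries, 10 members were called (limma, adjusted p under 0.05), 3 higher and 7 lower in LJ, against 9.19% of all tested genes, 7.63% higher and 1.56% lower. The total is near the background share. Among the 121 members that passed the filter without their S5 libraries, 2 were called higher and 5 lower in LJ. The 29 that passed only through S5 libraries gave 1 higher and 2 lower. With only the S5 groups fitted 3 members were called, 2 higher and 1 lower, and with a pseudocount of 0.1 it was 1 and 2. Quantile normalization gave 3 and 14, while all tested genes went from 2014 higher and 412 lower to 1371 and 815.

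The labels do not state that LJ and blade libraries were paired. Same-numbered libraries of a stage were taken as pairs because their replicate differences were correlated in these data. The pairing was thus chosen from the values it then tested, so the paired p-values may be too small. With that assumed pairing 53 members were called, 15 higher and 38 lower in LJ, against 21.3% of all tested genes, 15.2% higher and 6.12% lower. Both LJ libraries lay below both blade libraries in 43 members and above them in 16. Over all tested genes these shares were 15.4% and 43.8%. The split by direction without pairing rested on single libraries: without the first LJ library at S5, 2 members were higher and 16 lower in LJ, and without the second, 7 and 1. Without the first blade library the counts were 8 and 2, and without the second, 2 and 13.

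**Figure D4:**
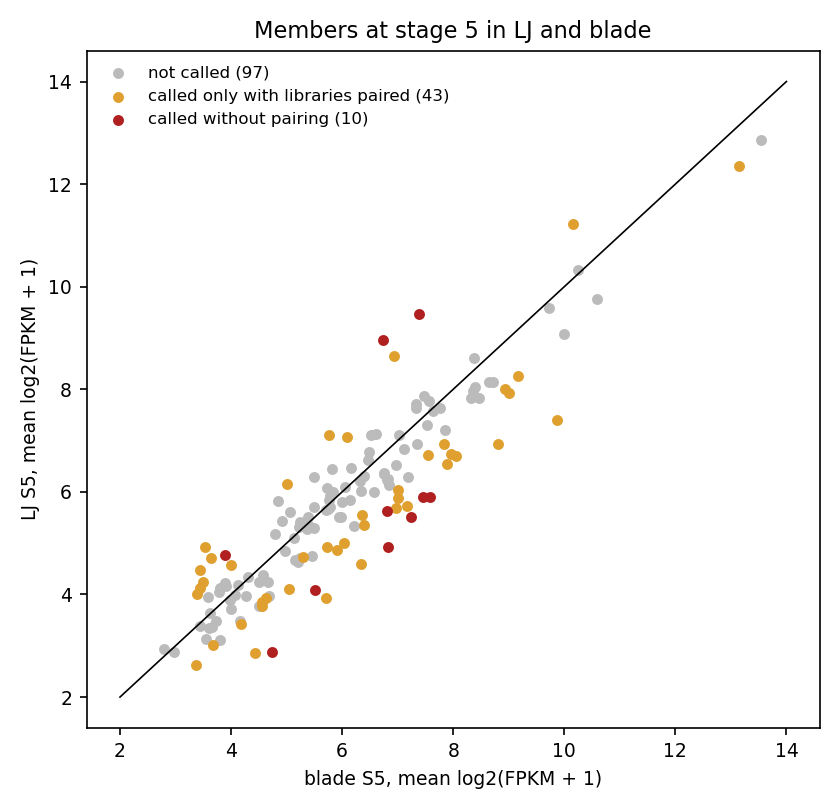
Mean level of each member at S5 in blade (horizontal axis) and LJ (vertical axis) on the log2(FPKM + 1) scale, with the line of equal level. Red points are the 10 members called without pairing and orange points those of the 53 called with libraries paired that were not among the 10; more of the coloured points lie below the line, where blade is higher.

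The members called higher in LJ at S5 were led by OS01G0963600, with a difference of 2.21 ± 0.26 (SE; limma, adjusted p = 8.5e-05). It was called under every alternative tried, with adjusted p from 9.5e-05 to 0.038. OS01G0910900 followed at 2.099 ± 0.50 (adjusted p = 0.016), and OS01G0564300, at 24.8 and 28.0 FPKM in LJ and 13.2 and 14.3 in blade, at 0.89 ± 0.18 (adjusted p = 0.0044). OS01G0910900 was called in 7 of 11 alternatives. Its call was lost with a pseudocount of 0.1, with only the S5 groups fitted, without the first LJ library, at 1.59, and without the second blade library, at 1.41. That of OS01G0564300 was also lost with a pseudocount of 0.1.

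On the blade side, OS04G0556400 stood at 31.2 and 27.8 FPKM in LJ and 121 and 105 in blade, a difference of −1.90 ± 0.46 (limma, adjusted p = 0.016). OS01G0537250 stood at 13.5 and 2.68 FPKM in LJ and 44.0 and 14.6 in blade, a difference of −1.86 ± 0.49 (adjusted p = 0.028). In the first gene the LJ libraries were far below both blade libraries, and in the second the tissues came close to touching. Its call was lost without the second LJ library, at −0.87, and without the first blade library, at −1.10, and also with only the S5 groups fitted. That of OS04G0556400 was lost when any one S5 library was left out, at −2.01 to −1.80. Both were lost with a pseudocount of 0.1.

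CM-LOX1 was called lower in LJ at S5, with a difference of −1.68 ± 0.31 (limma, adjusted p = 0.0026). Its call was lost with only the S5 groups fitted (adjusted p = 0.12). OS03G0663600 stood at 78.0 and 25.2 FPKM in LJ and 213 and 105 in blade, a difference of −1.73 ± 0.48 (adjusted p = 0.035). OS03G0184550 stood at 57.9 and 59.2 FPKM in LJ and 222 and 136 in blade, a difference of −1.55 ± 0.34 (adjusted p = 0.0089). In all 3 genes both LJ libraries lay below both blade libraries. The same held for OS03G0757000, at 25.8 and 9.86 FPKM in LJ and 62.1 and 32.0 in blade (−1.42 ± 0.37, adjusted p = 0.024), and for OS01G0623200, at 48.3 and 48.7 FPKM in LJ and 160 and 76.1 in blade (−1.17 ± 0.32, adjusted p = 0.033). The calls of OS03G0663600, OS03G0184550, OS03G0757000 and OS01G0623200 were lost with only the S5 groups fitted and without the second LJ library.

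Pairing added calls among the members with a symbol at S5. AOS2 was higher in LJ by 1.39 (limma, adjusted p = 0.074 without and 4.4e-04 with pairing), and MT1B by 0.62 (0.45 without and 0.0084 with). MT1B passed the filter only through its S5 libraries and was called in no alternative but the paired fit. Nothing is therefore read from the call of MT1B. LIR1 was lower in LJ, at −0.78 (0.29 and 0.011), as was CHT8, at −1.28 (0.058 and 0.011). CHT11 and CHT1, at 0.60 and 0.21, were called in neither fit. In both numbered pairs AOS2 and MT1B were higher in LJ, and LIR1 and CHT8 in blade. OS12G0628600, at −2.47, was called with pairing only (0.11 and 0.0011).

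At S4 the same comparison gave 7 members called, 5 higher and 2 lower in LJ (limma), against 7.17% of all tested genes, 6.70% and 0.473% by direction. With pairing it was 34, 22 higher and 12 lower, against 18.3%, of which 15.7% were higher and 2.59% lower. The median over members was 0.11 and over all tested genes 0.23, and both the members' median and the lead of higher over lower calls turned under other scalings: upper quartile scaling gave −0.05 with 2 higher and 4 lower, and quantile normalization −0.15 with 0 and 5. All tested genes went from 1768 higher and 125 lower to 1353 and 267 and to 1023 and 447. Without the second blade library at S4, 1 member was called.

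OS09G0343200 was the member called furthest below blade at S4, at 4.48 and 0.694 FPKM in LJ against 19.4 and 4.85 in blade, a difference of −1.84 ± 0.50 (limma, adjusted p = 0.037). CM-LOX1 stood at 0.381 and 0.624 FPKM in LJ and 2.04 and 3.98 in blade, a difference of −1.38 ± 0.31 (adjusted p = 0.013). Its blade level thus led at both stages. The calls of both genes depended on single libraries: OS09G0343200 stood at −0.998 without the second LJ library and −0.94 without the first blade library, and CM-LOX1 at −1.02 without the second blade library and −1.26 without the first LJ library, none of them called. Both were also lost with only the S4 groups fitted, and OS09G0343200 without the filter.

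On the LJ side at S4, OS09G0547500 stood at 5.48 and 7.54 FPKM in LJ and 2.36 and 0.896 in blade, 1.56 ± 0.40 higher (limma, adjusted p = 0.028). OS05G0172000 stood at 3.14 and 12.1 FPKM against 1.67 and 1.39, 1.54 ± 0.41 higher (adjusted p = 0.036), but it was called in only 3 of 11 alternatives. It was lost with a pseudocount of 0.1, without the filter, under both scalings, with only the S4 groups fitted, and without any S4 library but the first of LJ, with 0.71 without the second of LJ. OS09G0547500 was called in 6 of 11, and lost under quantile normalization, with only the S4 groups fitted, without either LJ library and without the second blade library. OS12G0515800, the member of highest score, was 1.51 ± 0.40 higher in LJ (adjusted p = 0.033). The libraries of the tissues did not overlap in any of the 3 genes. The other members called higher in LJ were OS01G0660200, at 13.9 and 16.2 FPKM against 6.36 and 5.18 (1.25 ± 0.27, adjusted p = 0.011), and OS03G0153900, at 1.04 and 1.05 FPKM against 0.563 and 0.209 (0.57 ± 0.16, adjusted p = 0.047). Without the second blade library at S4, 0 members were called higher in LJ, and with only the S4 groups fitted 0 were called in either direction.

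With pairing, CHT1 was higher in LJ at S4 by 1.54 (limma, adjusted p = 0.054 without and 0.0093 with), CHT8 by 0.98 (0.17 and 0.041), and LIR1 was lower, at −0.64 (0.42 and 0.032). CHT8 thus stood higher in LJ at S4 and higher in blade at S5, but neither difference was called without the assumed pairing.

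The step from S4 to S5 was compared between the tissues as an interaction. The score selected on the step in each tissue, so the counts describe the members and nothing is read from them. Without pairing 0 members were called (limma), against 0.360% of all tested genes, 0.208% larger and 0.151% smaller, and 18 were at an unadjusted p under 0.05, 3 with a larger step in LJ and 15 with a smaller one. With pairing 13 were called, 1 with a larger and 12 with a smaller step in LJ, against 1.35% of all tested genes, 0.689% and 0.659% by direction. The median over members was −0.40 and over all tested genes −0.08. The members' median was −0.04 without the second LJ library at S5, −0.06 without the first blade library at S5 and −0.70 without the first LJ library at S5. CHT8 stood at −2.26 ± 0.55 (adjusted p = 0.16 without pairing and 0.029 with). Leaving out single libraries gave 0 to 3 calls without pairing.

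The replicate libraries at S5 differed in a direction shared by most members. In LJ 124 of 150 members (82.7%) and in blade 123 (82.0%) were higher in the first S5 library than in the second, against 49.9% and 50.9% of all tested genes. The median of the first minus the second was 0.67 in LJ and 0.66 in blade on the log2(FPKM + 1) scale, against 0 and 0.01. Both tissues showed it in 112 members, 15 were lower in the first library of both, and 34.4% of all tested genes were higher in the first library of both. Its cause was not tested.

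**Figure D5:**
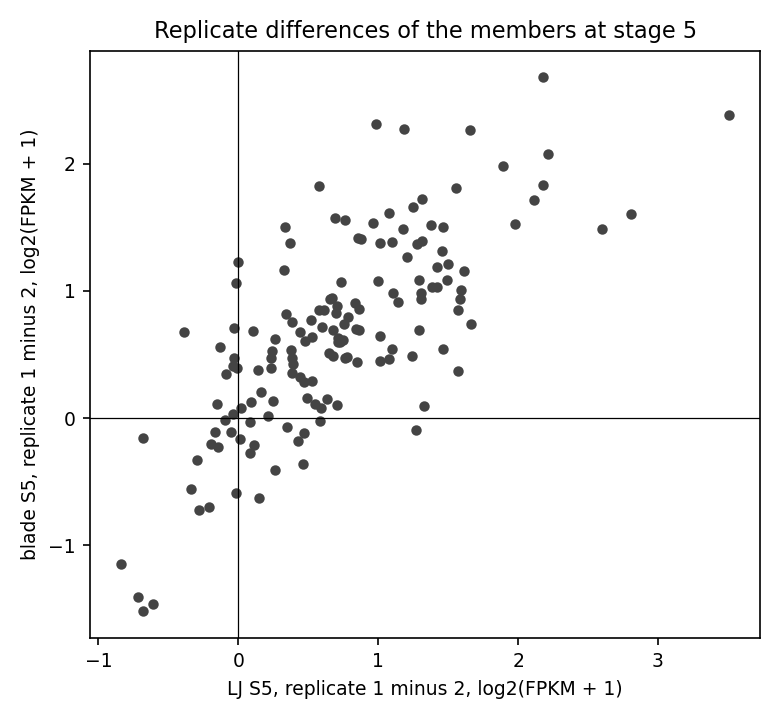
Difference between the first and second S5 library of each member in LJ (horizontal axis) and blade (vertical axis), on the log2(FPKM + 1) scale. Most of the 150 points lie at the upper right, where the first library is higher in both tissues, which holds 112 members.

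The choice of members was repeated in each replicate alone. The 150 genes chosen in the first libraries shared 114 with the set, and in the second libraries they had a median score of 2.18, with 145 above 0, against 16.3% of all genes. The 150 chosen in the second libraries shared 100 with the set, and in the first libraries they had a median score of 2.83, with 145 above 0, against 17.3% of all genes. In both directions 78 of the 150 were again among the top 150. Most genes chosen in one replicate thus also stood highest at S5 in the other, while many moved out of its top ranks. This describes the choice and does not test it, since the replicates may be technical. The shares of all genes include 3144 IDs at 0 in every library, which cannot score above 0.

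Chromosome 1 carried 37 of the members, 24.7%, against 14.3% of tested genes, and chromosome 2 carried 8, 5.33% against 11.7%. A member 5 or fewer IDs away was found for 43 members, 28.7%, in 19 runs. Sets of the same size chosen by the same score for S4 and S3 gave 24.7% and 28.7%, shares close to that of the members.

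The longest run was of 5 consecutive IDs on chromosome 1, OS01G0137700 to OS01G0137950. Its genes averaged 10.5 to 32.3 FPKM in LJ and 9.81 to 31.9 FPKM in blade at S5, and no earlier group mean of any of them exceeded 0.362 FPKM. Runs of 3 were OS01G0162200 to OS01G0162400 and OS02G0783625 to OS02G0783700, and the other 16 runs were pairs. OS12G0515800 was in one pair, with OS12G0516200, and MT1B and OS03G0288051 formed another. Overlapping or near-identical genes can share reads in these values, and its part in the runs was not tested.

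The rest of the pathways was read from lists of genes, without the members. Of 14 tested jasmonate genes that were not members, 3 rose from S4 to S5 in LJ and 0 fell, and in blade 2 rose and 1 fell (limma). Over all tested genes 28.5% were called in LJ, 19.5% rising and 9.01% falling, and 32.7% in blade, 23.8% rising and 8.87% falling. These stage steps were added after the values were seen. They were fitted only with all libraries, so no alternative is given for any listed gene. AOS1, the other allene oxide synthase gene on the list, averaged 31.0 FPKM at S4 and 64.2 at S5 in LJ, a rise of 1.00 (adjusted p = 0.012), and stood at 22.6 and 28.5 FPKM in blade, a difference of 0.33 that was not called. OPR7, a reductase of jasmonate synthesis, rose in both tissues, by 1.23 and 1.39 (adjusted p = 0.042 and 0.021), and JAR1, which joins jasmonate to isoleucine, fell in blade by 1.02 (adjusted p = 0.023). None of the 8 listed TIFY genes, which encode repressors of the jasmonate response, was called in either tissue.

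Of 13 tested defence genes that were not members, 3 rose in LJ and 6 in blade from S4 to S5, and 0 fell (limma). The rises in both tissues include OS02G0569900, whose listed symbol lay on another chromosome in the annotation. In blade they also include OS01G0382000 and OS12G0555000, whose symbols could not be checked. CHT3, a chitinase gene whose ID precedes that of CHT1, averaged 3.08 FPKM at S4 and 18.7 at S5 in LJ and 2.46 and 16.7 in blade, rises of 2.26 and 2.31 (adjusted p = 9.6e-05 and 6.8e-05). NH1, a regulator of salicylate-dependent defence, rose by 1.59 and 2.08 (adjusted p = 3.5e-04 and 3.6e-05). The WRKY62, WRKY71 and WRKY76 transcription factor genes were not called, with differences from −2.71 to 1.03.

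Of 8 tested senescence and chlorophyll breakdown genes that were not members, 4 rose in LJ and 0 fell, and 5 rose and 1 fell in blade (limma). The rises in both tissues include OS06G0354700 and OS03G0146400, whose symbols could not be checked. NYC1, a chlorophyll b reductase gene, rose by 1.49 and 1.84 (adjusted p = 0.021 and 0.0056). RCCR1, which encodes a reductase of chlorophyll catabolites, rose from 5.86 to 40.1 FPKM in LJ and from 4.44 to 43.3 in blade, by 2.58 and 3.03 (adjusted p = 5.2e-05 and 1.2e-05). GS1;1, a cytosolic glutamine synthetase gene, fell in blade by 0.96 (adjusted p = 0.029), and NOL was not called in either tissue. The list held 1 member, OS03G0327800, and the nitrogen list held another, OS03G0291500.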

How the data were processed

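RNA-seq values were used from 20 libraries in 10 groups, with tissue, stage and replicate number taken from the sample titles. The deposited values are FPKM per gene, and per the submitters' processing notes the authors used CASAVA 1.8, Trimmomatic 0.36, TopHat2 2.1.1 and Cufflinks 2.2.1 with the build IRGSP-1.0, in no stated order or role. Strandedness is not given in the sources here. Reads of a gene may therefore include those of an overlapping or antisense gene, or of a near-identical copy. FPKM keep no read numbers, and no whole reads could be recovered: at most 9.23% of the ratios of low values lay within 1% of their most frequent spacing. The depth is therefore unknown and no counting intervals are given.

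Group means of log2(FPKM + 1) over 37829 rice gene IDs gave the score, and the 150 highest were kept. The members, gene lists and tests were chosen with earlier results of these data known. The 26403 genes that reached 1 FPKM in 2 libraries or more were tested with limma 3.58.1 in R 4.3.3, with a mean-variance trend, 10 groups in one fit, and Benjamini-Hochberg adjusted p under 0.05 over all of them. Every adjusted p in the text is from limma. Differences on the log2(FPKM + 1) scale understate the change of low genes. Errors are SE of the fit. The fit was tested on simulated data.

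At each stage, replicate 1 minus replicate 2 in LJ was correlated across genes with the same difference in blade, with r of 0.478, 0.213, 0.662, 0.774 and 0.516 from S1 to S5. All 5 exceeded 0.1, so same-numbered libraries of a stage were taken as pairs, which the labels do not state. An alternative fit of the comparisons between tissues blocked on these pairs. For S3 to S4, an alternative fit added the replicate number as a single term over all stages. Other alternatives changed the pseudocount to 0.1, dropped the filter or set it to 5 FPKM, scaled by upper quartiles or quantiles, fitted only the groups compared, or left out each library in turn. In the last case the lone library left is taken to vary as the other groups do.

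Named are the 5 members of highest score, 3 on each side of the cut, the 2 largest called differences in each direction of each comparison, the 2 highest at S5, and members with a symbol. Other called members at S4 and S5 and the runs of neighbours were named after their values were seen. The RefSeq annotation (assembly ASM3414082v1) carries an ID of this kind in 1 of 39387 entries. Symbols therefore come from background knowledge, checked for the same chromosome and a place in gene order within 2%: of 150 listed pairs 116 passed, 30 had a symbol the annotation lacks, 2 lay on another chromosome and 2 too far away. The 5 pairs added later passed. The largest difference among the 7 named members was 0.565%. Of the 11 lists, those for defence, jasmonate, senescence and lamina joint are described with the members and the others among the other observations. Loci whose pair did not pass stay in the list counts and are given by ID only.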

Additional observations from a re-analysis of the deposited data

Results flagged for a closer look

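The files also list 44803 features whose IDs do not follow the rice gene pattern and which entered no test. Of these, 14 had a score at or above that of the last member, a signal in data that the comparisons did not use. The highest of them averaged 113992 FPKM in LJ and 628470 FPKM in blade at S5 and was listed at 0 in every earlier group mean. What these features are was not tested.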

How the results depend on the processing

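The rises from S3 to S4 kept their direction in LJ under every alternative run, with 71 to 96 calls, and 58 to 76 with single libraries left out. In blade the count was 44 to 71, except 28 with only the groups compared and 34 to 50 with libraries left out, where 1 member fell without the first S3 or the first S4 library. Counts between the tissues depended on the fit. At S5 the 10 calls became 3 with a pseudocount of 0.1, 17 under quantile normalization, 3 with only the groups compared and 8 to 18 without single libraries. At S4 the 7 calls became 4 with a pseudocount of 0.1, 0 with only the groups compared and 1 to 10 without single libraries. For the difference of the S4 to S5 step, leaving out libraries gave 0 to 3 calls. With LJ and blade libraries of a stage paired, the counts were 53 at S5, 34 at S4 and 13 for the step. For S3 to S4, the replicate number was fitted instead as a single term over all stages. That gave 82 calls in LJ and 51 in blade, against 79 and 51 without it.

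The choice of members shared 100 genes with the set at a pseudocount of 0.1, 139 after upper quartile scaling, 130 after quantile normalization, and 129 to 150 without single libraries. Scaling moved the median of all genes from S3 to S4 in LJ from −0.23 to −0.01 under both scalings, and in blade from −0.25 to −0.01 or 0.09. Uncalled differences turned sign as follows. MT1B for LJ minus blade at S5 ran from −0.0767 to 1.32 without single libraries, its S3 to S4 change in LJ from −0.213 to 0.0459 and in blade from −0.46 to 0. CHT1 at S5 ran from −0.16 to 0.59, and the S3 to S4 change of AOS2 in blade was 0.0019 under quantile normalization. The cause of these shifts was not tested. Among the values of single genes under alternatives, 306 kept direction and call, 38 lost a call, 13 gained one and 6 turned sign. With FPKM alone, a gene near 0 before S5 cannot be called absent.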

Other observations

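Other gene lists held few members and were read without them, from S4 to S5 (limma, adjusted p under 0.05). Over all tested genes 19.5% rose and 9.01% fell in LJ, and 23.8% and 8.87% in blade. The list counts include loci whose symbol did not pass the check. These steps were fitted only with all libraries, the uneven blade libraries at S4 included. Of 12 nitrogen uptake and assimilation genes, 5 rose and 0 fell in LJ, and 6 rose and 2 fell in blade. Fd-GOGAT, the glutamate synthase gene of the chloroplast, averaged 126 FPKM at S4 and 446 at S5 in LJ, and 268 and 957 in blade, rises of 2.11 and 1.98 (adjusted p = 0.013 and 0.015). AMT1;1, an ammonium transporter gene, rose by 1.68 and 1.29 (adjusted p = 0.010 and 0.032), and GS1;2, a cytosolic glutamine synthetase gene, fell in blade by 1.72 (adjusted p = 0.010). The member on this list, OS03G0291500, averaged 9.84 FPKM at S4 and 77.0 at S5 in LJ, and 3.24 and 148 in blade.

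None of the remaining lists held a member. Of 17 abscisic acid and late embryogenesis genes, 3 rose and 1 fell in LJ, and 5 rose and 1 fell in blade. Of 10 phosphate starvation genes, 1 rose and 1 fell in each tissue. Among 8 iron and zinc genes the counts were 1 and 1 in LJ and 2 and 0 in blade. Sugar transport and cleavage genes, 12 in number, gave 2 that rose and 3 that fell in LJ, and 2 and 4 in blade. Of 14 clock and flowering genes, 2 rose and 1 fell in each tissue. Of 2 silicon transport genes, 1 rose in LJ and 0 in blade. The 3 lamina joint markers gave 1 that rose in LJ, LG1, and 1 that fell in blade, OS11G0490600.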
